A study of Mus musculus with 6 samples.

Results

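The E2F transcription factors and the retinoblastoma pocket proteins were followed in mouse bone marrow RNA as 10 genes, taken by symbol from a table of 23359 gene symbols and compared between Gab2 -/- and Gab2 +/+ libraries. They were 3 activator E2Fs (E2f1, E2f2 and E2f3), 5 repressor E2Fs (E2f4, E2f5, E2f6, E2f7 and E2f8) and 2 pocket proteins (Rb1 and Rbl1). All 10 symbols were found, each on a single row, and all 10 passed the filter of a mean of at least 1 FPKM that left 9916 genes for testing. The series held 3 libraries labelled GAB2 NULL (NULL A, B and C) and 3 labelled GAB2 WT (WT A, B and C), made from poly(A) RNA with a stranded kit and sequenced as paired ends. It concerns GAB2, an adaptor that relays cytokine receptor and BCR-ABL1 signals, in myeloid and lymphoid transformation. Strain, age, sex, how the Gab2 allele was made, how marrow cells were handled and whether any carried BCR-ABL1 were not given in the sources used here. The labels name no separate animals, and every p-value therefore rests on library-to-library spread, which may be technical.

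E2F factors bind a short GC-rich element in genes for nucleotide synthesis, DNA replication and mitosis. E2F1, E2F2 and E2F3 activate these genes in dividing cells when the pocket proteins are phosphorylated by cyclin-dependent kinases. E2F4 and E2F5 act mainly with the pocket proteins p107 and p130 to keep the genes off in resting cells, E2F6 represses without pocket proteins, and E2F7 and E2F8 repress late in S phase as part of a feedback loop. B-cell precursors in marrow alternate between bursts of division and arrest while they rearrange their immunoglobulin genes.

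Before the results, the libraries were checked. Gab2 itself read 0.123, 0.145 and 0.203 FPKM in the NULL libraries, against 3.33, 3.10 and 2.43 FPKM in the WT ones. Depth was estimated from the steps between low values, at roughly 23.4 to 67.6 M fragments in NULL and 17.8 to 53.7 M in WT, which places about 160 to 7850 fragments behind each value of the 10 genes. The label is bone marrow, but markers of its most common cells, the neutrophils, were near 0. Over 16 B-lineage markers the summed FPKM ran between 4610 and 4700 in NULL and between 3330 and 3570 in WT, whereas over the 10 neutrophil markers in the table it was at most 0.155 in NULL and 0.186 in WT, with Elane, S100a8, S100a9 and Cebpe listed at 0 in every library. Of the 8 erythroid markers in the table Hba-a1 and Slc4a1 were listed at 0, and the list sum (159 to 184 in NULL, 276 to 360 in WT) came mostly from the transferrin receptor Tfrc, which dividing cells also express. The summed markers were 5.71 to 6.55 in NULL and 1.26 to 1.96 in WT for monocytes and macrophages. Most of that NULL sum was a single gene, Itgam (mean 4.56 FPKM in NULL, 0.0507 in WT). The sums were 41.8 to 49.2 in NULL and 24.7 to 27.3 in WT for T and NK cells, mostly Lck. For stroma and endothelium they were 24.9 to 25.6 in NULL and 10.6 to 11.6 in WT, mostly Pecam1. Megakaryocyte, mast cell and stem cell markers summed to at most 0.819, 3.13 and 12.2 in NULL and at most 0.138, 0.04 and 10.1 in WT. The part of these shifts in the results was not tested, and in bulk RNA fewer cells of a type and less RNA per cell cannot be told apart.

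Promoter stretches are shown because genes of this family are known targets of E2F itself and several of them were lower together. RefSeq windows on GRCm38.p6, from 250 bases before to 50 bases after the transcript start, were found for 7 of the 10 genes, and E2f4, E2f5 and Rb1 were not matched. The E2F element was searched on both strands as TTTCCCGC, TTTCGCGC, TTTGGCGC and TTTGCCGC, and the cell cycle homology region bound by the MuvB complex as TTTGAA and TTCGAA. Capitals mark the matches, and each stretch is written in the direction of the gene.
E2f3, chr13:29986064-29986123, minus strand: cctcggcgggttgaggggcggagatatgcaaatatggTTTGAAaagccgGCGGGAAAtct
Rbl1, chr2:157204535-157204594, minus strand: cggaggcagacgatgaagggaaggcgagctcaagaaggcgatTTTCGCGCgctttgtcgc
E2f7, chr10:110745215-110745274, plus strand: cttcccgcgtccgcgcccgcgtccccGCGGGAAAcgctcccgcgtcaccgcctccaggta
E2f2, chr4:136172294-136172323, plus strand: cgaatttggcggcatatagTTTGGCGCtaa
E2f8, chr7:48881597-48881656, minus strand: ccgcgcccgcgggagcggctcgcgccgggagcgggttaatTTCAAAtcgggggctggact
The E2F element was found for 4 of the 7 genes, E2f2, E2f3, E2f7 and Rbl1, against 5.28% of the 7408 tested genes with a window and 16 of 40 G1/S target genes. Its first base lay 18 bases before the start in Rbl1, 11 before it in E2f3, 198 before it in E2f7 and 40 after it in E2f2. The cell cycle homology region was found in windows of E2f2, E2f3 and E2f8, against 16.7% of the tested genes, and the E2f2 match lay in the window of a second transcript that is not printed. The E2f1 window (154569377 to 154569676) held no match and lies inside the gene as GENCODE vM21 annotates it, and the E2f6 window held none. A match says only that these letters are present.

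Of the 10 genes, 7 were lower in the NULL libraries and 3 were not called either way. E2f8 fell the most, to 37.7% of the WT mean, followed by the activator E2f3 at 54.5%, and E2f1, Rbl1, E2f4 and E2f7 lay between 62.4% and 67.8%. E2f2, E2f5 and Rb1 had NULL means between 93.5% and 103% of WT. In limma on log2(FPKM + 1), with adjustment over all genes and a threshold of 0.05, 42.0% of all tested genes were called lower and 23.3% higher, 65.3% in all, so a call by itself does not set a gene apart in this comparison. For the same 7 genes every NULL value lay below every WT value, as it did for 45.1% of all tested genes, and for 0 of the 10 did every NULL value lie above every WT value (26.0% of all genes). The median log2 change was -0.49 over the 10 genes and -0.13 over all tested genes, so a gene at -0.13 moved like the typical gene. After median-of-ratios rescaling, which brings that median to 0.01, 6 of the 10 were called lower (32.7% of all genes) and 0 higher (31.7%), E2f6 losing its call. Quantile normalization gave the same 6 lower (33.1%) and 0 higher (28.5%). With all libraries set to equal totals E2f8 alone was called lower (10.1% of all genes) and 0 were higher (20.4%). With equal totals that leave out small RNA genes, 4 of the 10 were lower (20.6% of all genes) and Rb1 was higher (45.2%). The share of all calls that were lower was 64.3% on the deposited scale and 50.8%, 53.7%, 33.1% and 31.4% under those 4 rescalings in the same order.

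**Figure D1:**
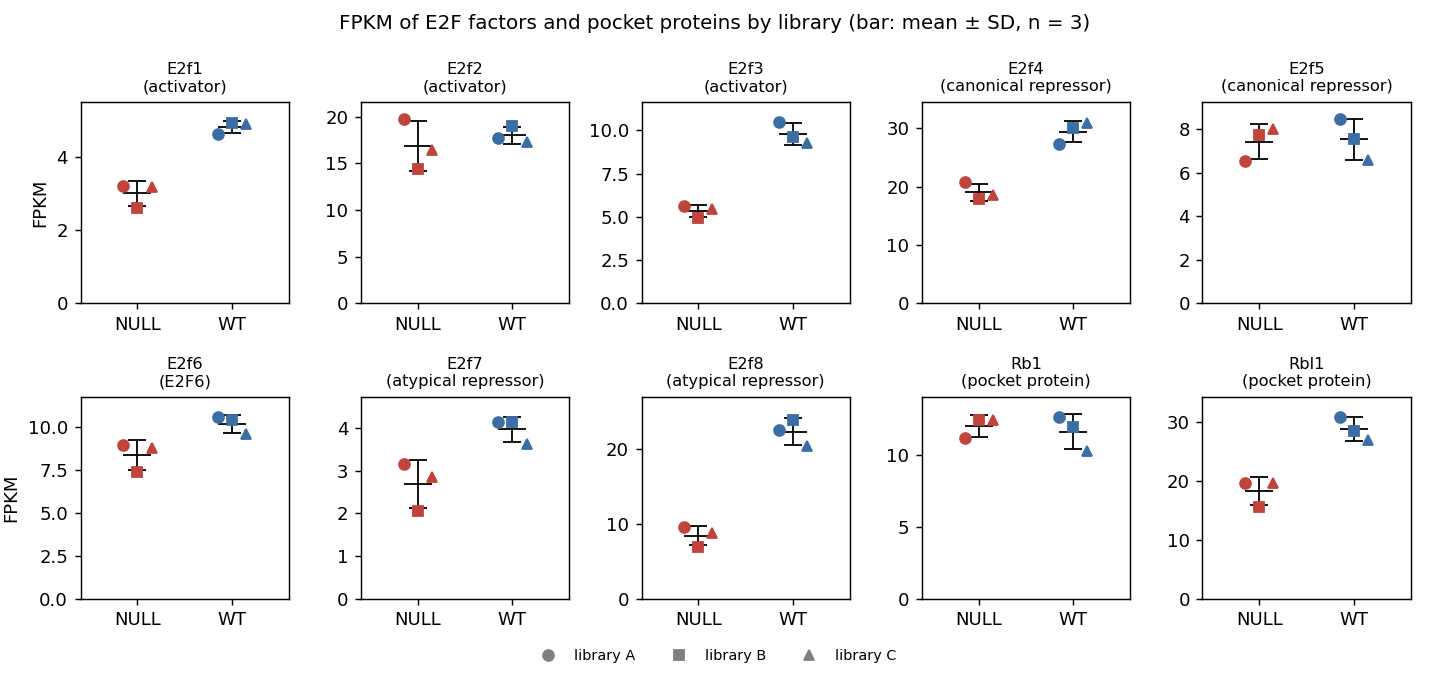
FPKM of each gene (vertical axis, linear, from 0) in the 3 NULL libraries, left, and the 3 WT libraries, right; symbols mark the library letter, and bars give mean ± SD. E2f8 lies between 6.98 and 9.53 in NULL and between 20.4 and 24.0 in WT, while the groups overlap for E2f2, E2f5 and Rb1.

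The activators did not move as a block. E2f3 (chromosome 13, 29906575 to 29986063, minus strand, GRCm38), an activator made as a long and a short form from separate promoters, measured 5.60, 4.94 and 5.46 FPKM in the NULL libraries and 10.5, 9.62 and 9.27 FPKM in the WT libraries. The groups stood clear of each other, at 5.33 ± 0.35 FPKM in NULL and 9.79 ± 0.625 FPKM in WT (SD, n = 3 each), and the limma log2 change was -0.77 (SE 0.075, adjusted p = 9.06e-05). Values summed per gene do not show which of its forms changed. E2f1 (chromosome 2, 154559407 to 154569892, minus strand), the activator best known for also inducing apoptosis genes, measured 3.22, 2.62 and 3.18 FPKM in NULL and 4.63, 4.92 and 4.91 FPKM in WT. Its groups did not overlap either, at 3.01 ± 0.335 FPKM in NULL and 4.82 ± 0.169 FPKM in WT, and it fell by 0.54 on the log2 scale (SE 0.082, adjusted p = 0.000731).

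E2f2 (chromosome 4, 136172394 to 136196057, plus strand) was the most abundant activator and the exception. It read 19.7, 14.4 and 16.4 FPKM in NULL and 17.7, 19.0 and 17.3 FPKM in WT. NULL A held the highest of the 6 values and NULL B the lowest, so the NULL libraries spanned the WT range on both sides. The log2 change was -0.10, with a 95% interval between -0.35 and 0.15 (limma adjusted p = 0.435), and its sign turned to positive under all 4 rescalings (0.05 to 0.26). Within the activators, E2f2 made up 65.5% to 69.0% of the summed activator FPKM in NULL and 53.9% to 56.6% in WT. The ratio of E2f3 to E2f2, which multiplying a library by a constant cannot alter, was 0.285, 0.343 and 0.333 in NULL and 0.594, 0.507 and 0.535 in WT. The log2 difference of that ratio was -0.77 (exact two-sided permutation p = 0.1, the smallest that 3 against 3 allows, and 0.125 after adjustment over the 5 ratios computed). This pair was chosen after its values were seen.

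Among the canonical repressors, E2f4 was lower and E2f5 was not called. E2f4 (chromosome 8, 105297663 to 105305370, plus strand), the gene with the highest mean of the 10 in both groups and a factor that mouse erythroid cells need to mature, measured 20.7, 17.8 and 18.5 FPKM in NULL and 27.3, 30.1 and 30.8 FPKM in WT. Every NULL value lay below every WT value. The NULL mean was 19.0 ± 1.51 FPKM and the WT mean 29.4 ± 1.83 FPKM, a log2 change of -0.60 (SE 0.08, limma adjusted p = 0.000366). E2f5 (chromosome 3, 14578641 to 14606309, plus strand), its close relative, read 6.53, 7.74 and 8.02 FPKM in NULL and 8.47, 7.54 and 6.58 FPKM in WT. Its groups covered nearly the same range, with a log2 change of -0.02 and a 95% interval between -0.26 and 0.23. The gene overlaps 1810022K09Rik on the opposite strand, which was far more abundant (111 to 141 FPKM in NULL, 204 to 231 FPKM in WT). Whether counting used strand was not given in the sources used here, so reads of the overlap could have been exchanged.

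E2f1 and E2f4 fell side by side. The ratio of E2f1 to E2f4 was 0.156, 0.147 and 0.172 in NULL and 0.169, 0.164 and 0.16 in WT. These values overlapped, and the log2 difference of -0.06 gave an exact permutation p of 0.5. E2f6 (chromosome 12, 16810963 to 16839742, plus strand), which represses through polycomb-type complexes, was 8.97, 7.38 and 8.81 FPKM in NULL and 10.6, 10.4 and 9.62 FPKM in WT. Its highest NULL value lay just under its lowest WT value, with a log2 change of -0.26 (SE 0.085, limma adjusted p = 0.0291). The call was lost under all 4 rescalings, where the change ran between -0.17 and 0.09. The call was also lost, at the same change of -0.26, with a replicate block (adjusted p = 0.0582), and without any filter (0.0527). Leaving out NULL B, WT A or WT B ended it too, with changes of -0.18, -0.23 and -0.24 (adjusted p = 0.0756, 0.0863 and 0.0852).

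The largest drop was that of an atypical repressor. E2f8 (chromosome 7, 48866429 to 48881596, minus strand) encodes a factor that binds DNA without a DP partner and represses E2F1 and other E2F targets in cycling cells. It measured 9.53, 6.98 and 8.79 FPKM in the NULL libraries, against 22.6, 24.0 and 20.4 FPKM in the WT libraries. Every NULL value was under 10 FPKM and every WT value above 20 FPKM, with means of 8.43 ± 1.31 FPKM in NULL and 22.4 ± 1.8 FPKM in WT. The log2 change of -1.32 (SE 0.113, 95% interval between -1.58 and -1.05, limma adjusted p = 5.82e-05) was lower than that of all but 1.73% of the tested genes. It was called in all 19 alternatives, with changes between -1.41 and -0.96. E2f8 shares chromosome 7 with Gab2 but lies 48.2 Mb from it.

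E2f7 (chromosome 10, 110745439 to 110787384, plus strand), the partner of E2F8 in the same feedback, was the least abundant gene in the set. It read 3.16, 2.06 and 2.86 FPKM in NULL and 4.15, 4.14 and 3.63 FPKM in WT, and the groups did not overlap, with NULL B the lowest of all. It fell by 0.44 on the log2 scale (SE 0.121, limma adjusted p = 0.0138), with the call lost under equal totals (adjusted p = 0.398) and under equal totals that leave out small RNA genes (0.296). The ratio of E2f8 to E2f7 was 3.01, 3.39 and 3.08 in NULL and 5.46, 5.80 and 5.63 in WT, a log2 difference of -0.83 (exact permutation p = 0.1, adjusted 0.125, pair chosen after seeing the values).

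**Figure D2:**
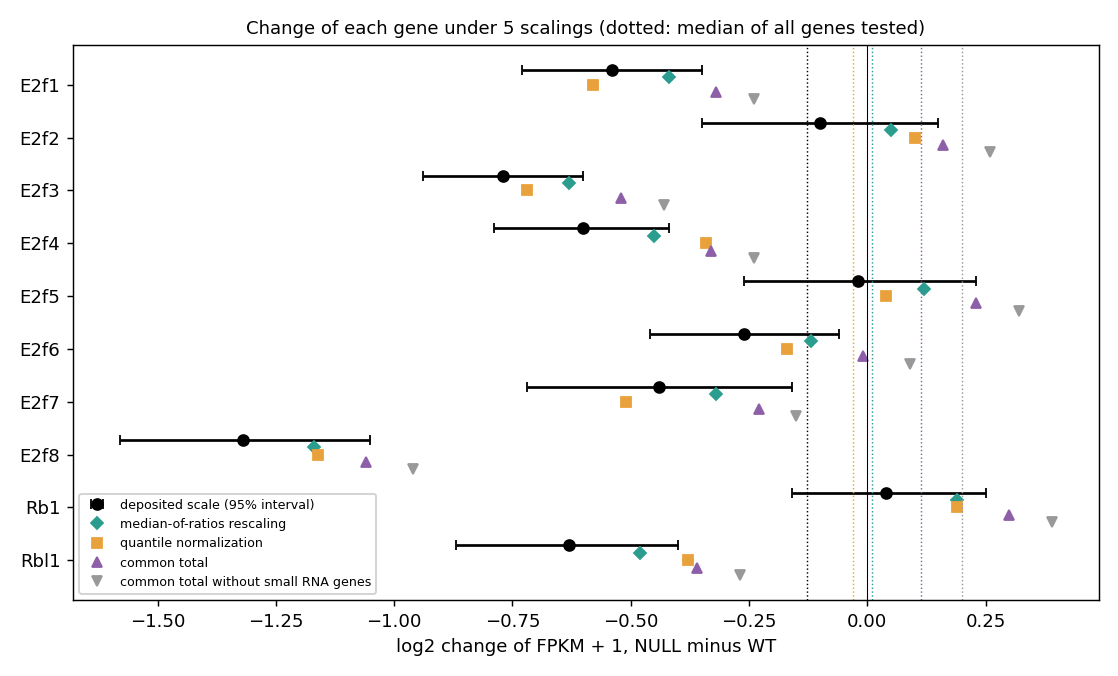
Log2 change of FPKM + 1, NULL minus WT (horizontal axis), for each gene on the deposited scale (black, with 95% interval) and under 4 rescalings; dotted lines give the median of all tested genes under each. E2f8 stays between -1.32 and -0.96, whereas E2f2 and E2f5 change sign.

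The pocket proteins split as well. Rbl1 (chromosome 2, 157145893 to 157204534, minus strand) encodes p107, the pocket protein typical of cycling cells and itself an E2F target. It measured 19.7, 15.6 and 19.7 FPKM in NULL and 31.0, 28.6 and 27.0 FPKM in WT. All NULL values lay below 20 FPKM and all WT values at 27.0 FPKM or above, at 18.3 ± 2.33 FPKM in NULL and 28.9 ± 2.03 FPKM in WT (log2 change -0.63, SE 0.102, limma adjusted p = 0.000987). Its call was lost under equal totals (adjusted p = 0.301) and under equal totals that leave out small RNA genes (0.058).

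Rb1 (chromosome 14, 73183673 to 73325822, minus strand) encodes pRB, the founding pocket protein and main partner of the activator E2Fs. It read 11.2, 12.5 and 12.5 FPKM in NULL and 12.7, 12.0 and 10.3 FPKM in WT, with full overlap. The log2 change was 0.04, with a 95% interval between -0.16 and 0.25, which leaves room for differences of that size. With equal totals that leave out small RNA genes, under which the median gene moved by 0.20, Rb1 was called higher by 0.39 (adjusted p = 0.0215). On the opposite strand the Rb1 locus overlaps Lpar6, a lipid receptor gene (12.6 to 13.6 FPKM in NULL, 6.19 to 8.19 in WT), and Rcbtb2 (6.41 to 7.40 in NULL, 11.4 to 12.7 in WT).

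Rbl2, the third pocket protein gene, encodes p130, which dominates in resting cells. It was not among the 10 and measured 10.1 ± 0.204 FPKM in NULL and 9.04 ± 0.674 FPKM in WT (log2 change 0.14, adjusted p = 0.11). Every NULL value of Rbl2 lay above every WT value, as for 26.0% of all tested genes. It was called higher by 0.28 after median-of-ratios rescaling (limma adjusted p = 0.0108) and by 0.24 under quantile normalization (0.0224). Under equal totals without small RNA genes it was called higher by 0.49 (0.00291), and under equal totals it was not called (0.39, adjusted p = 0.211). The ratio of Rbl1 to Rb1 was 1.75, 1.26 and 1.57 in NULL and 2.44, 2.37 and 2.61 in WT, without overlap (log2 difference -0.71, exact permutation p = 0.1, adjusted 0.125). Of the summed FPKM of the 3 pocket genes, Rbl1 held 41.2% to 48.1% in NULL and 57.2% to 59.2% in WT.

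**Figure D3:**
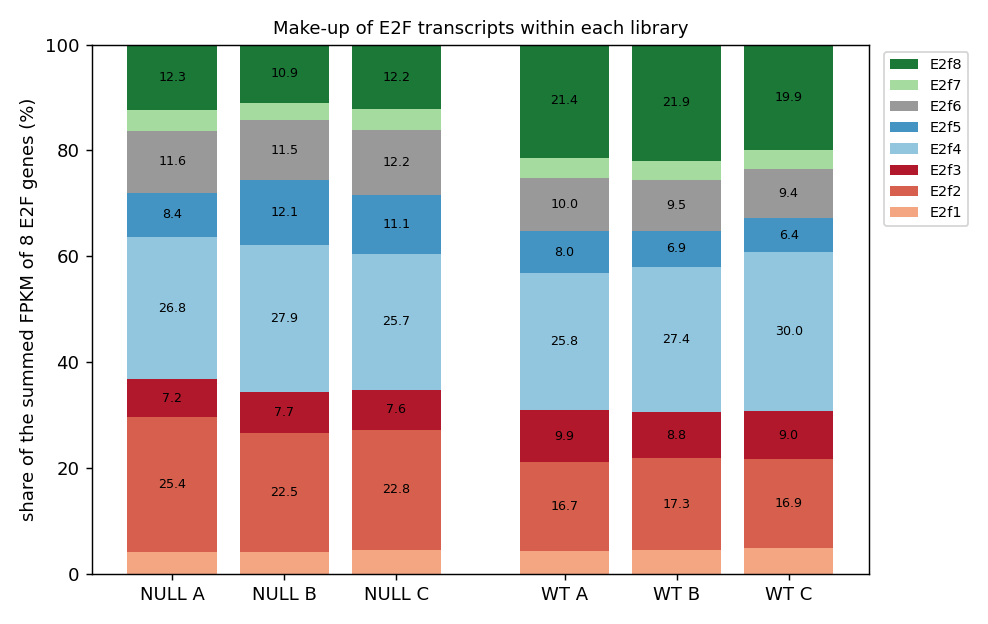
Share of each E2F gene in the summed FPKM of the 8 E2F genes (vertical axis, percent) for the 3 NULL libraries, left, and the 3 WT libraries, right, with the larger shares printed. E2f8 takes 10.9% to 12.3% in NULL and 19.9% to 21.9% in WT, and E2f2 22.5% to 25.4% in NULL and 16.7% to 17.3% in WT.

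Seen as a family, E2F transcripts were fewer and differently composed in NULL. The 8 E2F genes summed to 63.9 to 77.4 FPKM in NULL and 103 to 110 FPKM in WT on the deposited scale. The atypical pair took 14.1% to 16.4% of that sum in NULL and 23.5% to 25.7% in WT. Within the pair the lower share was that of E2f8, while E2f7 took 3.22% to 4.09% in NULL and 3.54% to 3.91% in WT. The activators took 34.3% to 36.8% in NULL and 30.6% to 31.0% in WT, and E2f6 took 11.5% to 12.2% in NULL and 9.38% to 9.97% in WT. Among the activators only E2f2 took a larger share in NULL (22.5% to 25.4%) than in WT (16.7% to 17.3%). The share of E2f3 was smaller (7.24% to 7.72% in NULL, 8.77% to 9.9% in WT). That of E2f1 overlapped (4.1% to 4.42% in NULL, 4.37% to 4.79% in WT). The canonical repressors E2f4 and E2f5 together held 35.2% to 40.0% in NULL and 33.8% to 36.4% in WT, with overlap. These shares do not depend on a library's overall scale and are given as a description.

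By level, E2f4 and Rbl1 headed both groups and overlapped in each. E2f8 was the next in WT, clear of E2f2, Rb1, E2f6, E2f3, E2f5, E2f1 and E2f7 in that order, with overlap only between Rb1 and E2f6 and between E2f6 and E2f3 among neighbours. In NULL the order after Rbl1 was E2f2, Rb1, E2f8, E2f6, E2f5, E2f3, E2f1 and E2f7. There E2f8 could not be told from E2f6, whose NULL values ran between 7.38 and 8.97 FPKM. E2f2 overlapped Rbl1, E2f6 overlapped E2f5 and E2f1 overlapped E2f7. Within the NULL group NULL B was lowest for 8 of the 10 genes, the exceptions being E2f5 and Rb1, and within WT, WT C was lowest for 8, the exceptions being E2f1 and E2f4. NULL B was also the shallowest NULL library and had the smallest median-of-ratios factor (0.928, against 0.956 and 0.96). WT C, in contrast, had the largest factor of the WT libraries (1.07, against 1.04 and 1.06). At about 22.4 M fragments it was deeper than WT B (17.8 M). The part of depth or scale in these low values was not tested.

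The genes whose profiles over the 6 libraries came closest were found by the root mean square difference of log2(FPKM + 1), each gene centred on its own mean. For E2f8 they were the mitochondrial gene Apoo (0.027), the ribonucleotide reductase subunit Rrm2 (0.036) and the chromatin protein Hmgb3 (0.038), where the median gene differed by 0.61. For Rbl1 they were the spindle gene Aspm (0.028), B3galt6 (0.035) and the kinetochore gene Ndc80 (0.04), with a median of 0.31. Aspm measured 14.8 ± 1.63 FPKM in NULL and 24.2 ± 1.73 FPKM in WT. For E2f4 they were Tbrg4 (0.027), Xkr5 (0.027) and the sterol isomerase Ebp (0.029), and for E2f2 Rnf5 (0.034), the RNA decay helicase Upf1 (0.037) and the noncoding gene Pvt1 (0.046). Xkr5 was weak, at 0.761 ± 0.121 FPKM in NULL and 1.75 ± 0.22 FPKM in WT. At that level the added 1 FPKM narrows its change, so its closeness to E2f4 holds on this scale only.

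The DNA-binding partners of E2F1 to E2F6 moved in opposite directions. Tfdp1, which encodes the main partner DP1, fell to 86.7 ± 9.74 FPKM in NULL, against 155 ± 9.49 FPKM in WT (log2 change -0.84, limma adjusted p = 0.000209). Tfdp2, which encodes DP2, rose to 10.8 ± 0.703 FPKM in NULL, against 6.61 ± 0.606 FPKM in WT (log2 change 0.64, adjusted p = 0.000354). Tfdp1 kept its negative sign under all 4 rescalings but was not called under equal totals, and Tfdp2 was called under all 4. The ratio of Tfdp1 to Tfdp2 was 9.38, 6.70 and 8.13 in NULL and 21.0, 22.2 and 28.0 in WT (log2 difference -1.56, exact permutation p = 0.1, adjusted 0.125, pair chosen after seeing the values). The Tfdp2 windows held no match to either promoter element. Tfdp1 carries the E2F element, which 5.28% of tested genes with a window also held, here on the reverse strand.
Tfdp1, chr8:13338682-13338741, plus strand: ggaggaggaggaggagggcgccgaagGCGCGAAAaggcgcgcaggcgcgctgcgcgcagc

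Upstream of the pocket proteins, cyclins E and A, Cdk2 and Cdk4 were lower while CDK inhibitors were higher. Of 8 tested kinase and cyclin genes 5 fell and 0 rose, beside 42.0% of all tested genes lower and 23.3% higher. Ccne1, Ccne2 and Ccna2 are also on the list of G1/S targets below, so the counts of these lists are not separate. Ccne1 fell to 5.03 ± 1.18 FPKM in NULL, against 13.9 ± 0.801 FPKM in WT (log2 change -1.32), and Ccna2, Ccne2 and Cdk2 had log2 changes of -1.14, -0.95 and -0.70. Cdk4, a kinase of the D-type cyclins, fell to 149 ± 17.5 FPKM in NULL, against 236 ± 22.7 FPKM in WT (log2 change -0.67, limma adjusted p = 0.00128). It was not called under quantile normalization. Cdk6 was not called at 0.03, although it was called higher under equal totals without small RNA genes. Under equal totals 3 of the 8 were called lower (Ccne1, Ccne2 and Ccna2), and Cdk2 and Cdk4 were not (adjusted p = 0.221 and 0.254). The D-type cyclins Ccnd3 (137 ± 17.6 FPKM in NULL, 129 ± 14.3 in WT) and Ccnd2 (37.3 ± 2.98 FPKM in NULL, 37.6 ± 2.33 in WT) were not called, although both were called higher under quantile normalization and under equal totals without small RNA genes. Of 6 tested CDK inhibitors 5 rose and 0 fell, beside 23.3% of all genes higher and 42.0% lower, with a median log2 change of 0.55 that was 0.68 to 0.89 under the rescalings. Cdkn1a, encoding p21, rose to 23.5 ± 0.753 FPKM in NULL, against 8.98 ± 2.0 FPKM in WT (log2 change 1.32, limma adjusted p = 0.000142). Cdkn1b, Cdkn2d and Cdkn2b rose by 0.66, 0.56 and 0.54, and Cdkn2a was not called (0.38, adjusted p = 0.0816). Cdkn2a was called higher under every rescaling, with changes between 0.43 and 0.71 (limma adjusted p between 0.00166 and 0.0429). Under each of the rescalings all 6 tested CDK inhibitors were thus called higher.

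Downstream, the G1/S and G2/M targets of the family fell almost throughout. Of 49 tested G1/S target genes 47 fell and 0 rose, with a median log2 change of -0.98 beside -0.13 for all genes and 42.0% of all genes called lower. The nucleotide enzymes Rrm1 and Dut, the replication factor Mcm10 and the licensing inhibitor Gmnn led, with changes of -1.47, -1.40, -1.39 and -1.37. Dut measured 30.1 ± 5.12 FPKM in NULL and 80.5 ± 1.17 FPKM in WT. Ezh2, a polycomb methyltransferase, and Pold1, a DNA polymerase subunit, were the members not called, at 0.13 and 0.16. Of 30 G2/M target genes all 30 fell, with a median of -0.95, led by the checkpoint kinase Bub1 (12.5 ± 2.32 FPKM in NULL, 32.7 ± 1.49 in WT), the mitotic cyclin Ccnb1, the kinase Plk1 and the survivin gene Birc5. Under equal totals 31 of the 49 and 19 of the 30 were called lower, and 0 of either list higher. Leaving small RNA genes out of the totals gave 2 of the 49 higher (Ezh2 and Pold1) and 45 lower, and quantile normalization gave 1 higher (Ezh2) and 45 lower.

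The MuvB complex joins p107 and p130 with E2F4 in resting cells and B-MYB and FOXM1 in G2. Of its 7 tested genes 5 fell and 1 rose, beside 42.0% of all tested genes lower and 23.3% higher. The DNA-binding subunit Lin54 fell to 4.39 ± 0.181 FPKM in NULL, against 8.12 ± 0.988 FPKM in WT, and Mybl2, encoding B-MYB, to 10.9 ± 2.28 FPKM in NULL, against 18.6 ± 0.894 FPKM in WT. The log2 changes of Lin54, Mybl2 and Foxm1 were -0.75, -0.74 and -0.44, and that of Lin37, which rose, was 0.29. Under equal totals 0 of the 7 were called in either direction, beside 10.1% of all genes lower and 20.4% higher.

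**Figure D4:**
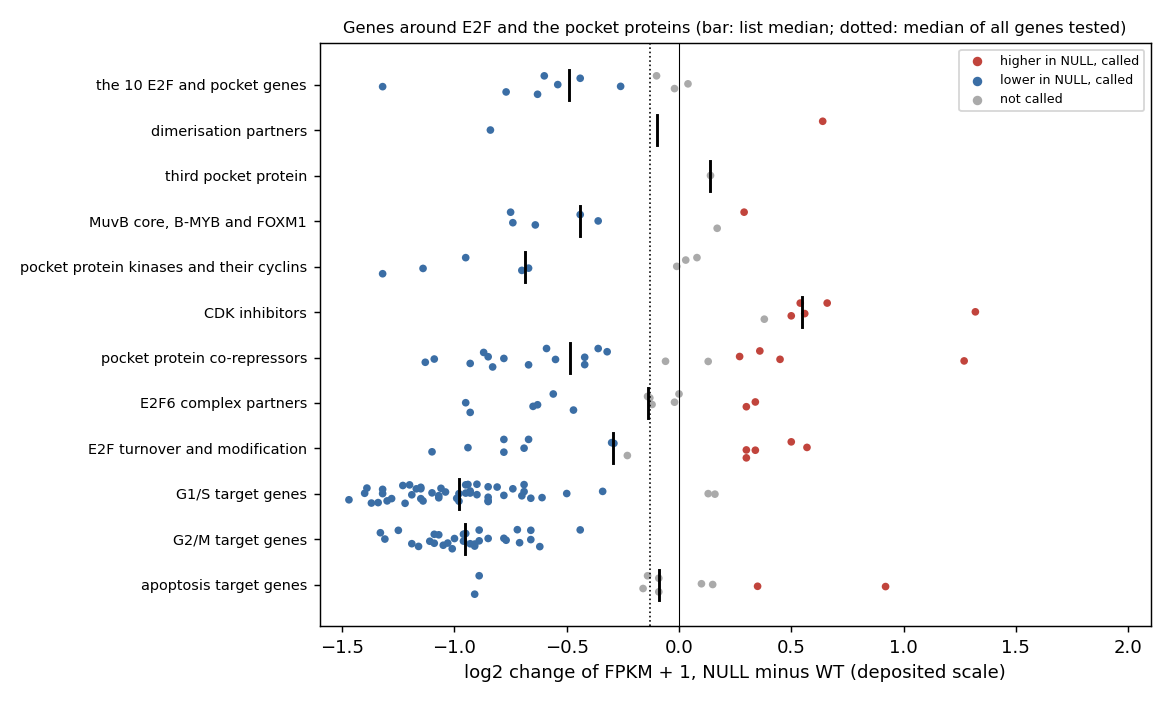
Log2 change of FPKM + 1, NULL minus WT, on the deposited scale (horizontal axis) for the 10 genes and for each list of related genes; points are genes coloured by call, black bars list medians, and the dotted line the median of all tested genes at -0.13. The G1/S and G2/M target genes lie left of it around -0.98 and -0.95, and the CDK inhibitors right of it around 0.55.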

How the data were processed

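The values are FPKM as deposited by the authors, fragments scaled by transcript length and library size. Bowtie and Cufflinks, with mm10 and GRCm38 as builds, stand in the submitters' processing notes without versions or roles. Annotation, filters and strand setting were not given in the sources used here. The series table differed from the library tables in 0 values. Repeated symbols kept the row with the highest mean (489 rows left out). After a filter at a mean of 1 FPKM, log2(FPKM + 1) was tested two-sided in limma 3.58.1 (R 4.3.3) with a mean-variance trend, and p-values were adjusted by Benjamini-Hochberg over 9916 genes (threshold 0.05). Fold changes on this scale understate those of weakly expressed genes. The main fit was first tested on simulated data with independent noise and no shift in library scale. That simulation does not bear on the choice of scaling. Within-library ratios were compared by exact permutation. FPKM carry no counts, so no count model or counting interval was used, and depths are approximations. Positions are from GENCODE vM21, promoter windows from RefSeq.

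The 10 genes and all lists were chosen with earlier results of these data known. Genes named beside the 10 are, of each list, up to 4 called with the largest change and up to 2 uncalled with the highest mean, plus the 3 closest profiles for the most abundant gene of each class. Lin37, Cdk4, Cdk6, Crebbp, Kat2b, Ep300, Mdm2 and Setd7 were named as well, to show the rest of their lists. Some lists share genes. Ccne1, Ccne2, Ccna2, Mybl2, Dnmt1 and Ezh2 also count as G1/S targets, and Foxm1 and Cdc20 as G2/M targets. Cbx3 is counted with the co-repressors and with the E2F6 partners. Alternatives were other pseudocounts, filters, scalings and moderation, array weights, a replicate block and leaving out each library.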

Additional observations from a re-analysis of the deposited data

How the results depend on the processing

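On the deposited scale 2311 genes were called higher and 4168 lower, and 7 of the 10 genes lower and 0 higher. Equal library totals that leave out small RNA genes gave 4480 higher and 2047 lower, with 4 of the 10 lower (E2f1, E2f3, E2f4 and E2f8) and 1 higher (Rb1). Equal totals over all genes gave 2023 higher and 1003 lower, with 1 of the 10 lower (E2f8). Small RNA genes held between 6.06% and 31.5% of the summed FPKM. A filter at a mean of 5 FPKM gave 1364 genes higher, with 7067 genes tested. Over all related genes taken once, 20 were higher and 110 lower, against 35 higher under equal totals without small RNA genes and 58 lower under equal totals. The cause of these shifts was not tested. E2f2 turned to 0.10, 0.16, 0.05 and 0.26 under quantile, equal totals, median-of-ratios and equal totals without small RNA genes, and E2f5 to 0.04, 0.23, 0.12 and 0.32, none of them called. E2f5 ran between -0.10 and 0.06 as single libraries were left out, at 0.06 without NULL A or WT A, E2f6 turned to 0.09 under equal totals without small RNA genes and Rb1 to -0.04 without WT C. Leaving out single libraries kept 6 to 7 of the 10 lower, and the difference in the ratio of E2f1 to E2f4 ran between -0.12 and -0.00. Same-lettered libraries correlated in their deviations from the group means at 0.0735, 0.355 and 0.133, each best with its own letter, so the letters share a number without a stated pairing. The replicate block gave 2050 genes higher and 3794 lower and 6 of the 10 lower, E2f6 losing its call. The depth is an estimate, so no counting limit is given for E2f1 and E2f7, the weakest of the set.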

Other observations

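Over all tested genes the background was 42.0% lower and 23.3% higher on the deposited scale, and 10.1% lower and 20.4% higher under equal library totals. Of 20 co-repressor genes 14 fell and 4 rose, those higher being near the share of all genes, with a median log2 change of -0.49, and under equal totals 4 were lower and 3 higher. The chromatin remodeller Smarca4 rose to 183 ± 9.12 FPKM in NULL, against 75.5 ± 8.2 FPKM in WT (limma log2 change 1.27, adjusted p = 3.37e-05). The heterochromatin proteins Cbx5 and Cbx3 and the SIN3 subunit Sap30 fell, with log2 changes of -1.13, -0.93 and -1.09, while Sin3b was not called at -0.06. Of 13 partners of E2F6, 6 fell and 2 rose, near the 42.0% and 23.3% of all genes, with a median of -0.14 beside -0.13 for all genes and 0.19 under equal totals without small RNA genes. The subunit specific to that complex, Pcgf6, fell to 6.13 ± 0.638 FPKM in NULL, against 12.7 ± 0.585 FPKM in WT, and its scaffold Mga was not called at 17.3 ± 1.58 FPKM in NULL and 17.2 ± 0.701 FPKM in WT.

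Of 14 genes for E2F turnover and modification 8 fell and 5 rose, beside 42.0% and 23.3% of all genes. Under equal totals 2 were lower and 3 higher, and the median log2 change was -0.29 on the deposited scale, -0.02 under equal totals and 0.08 when those leave out small RNA genes. The arginine methyltransferases Prmt5 and Prmt1 were the lowest, with log2 changes of -1.10 and -0.94, and the ubiquitin ligase scaffold Cul1 and the anaphase activator Cdc20 both -0.78. The 5 that rose were Crebbp, Kat2b, Ep300, Mdm2 and Setd7, with log2 changes of 0.57, 0.5, 0.34, 0.3 and 0.3. Of 10 tested apoptosis targets 2 rose, 2 fell and 6 were not called, so the share lower was under the 42.0% of all genes and the share higher near their 23.3%. Bbc3, encoding PUMA, rose to 2.23 ± 0.621 FPKM in NULL, against 0.69 ± 0.0802 FPKM in WT, and Bcl2l11, encoding BIM, rose by 0.35, while Bid fell, with a log2 change of -0.91. The apoptosome gene Apaf1 was not called (0.15, adjusted p = 0.14), nor was Casp8 (-0.14, adjusted p = 0.103). Apaf1 was called higher under every rescaling except equal totals, and Casp8 under quantile normalization only.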
